A study of Mus musculus with 32 samples.

Results

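The genes described here are 10 genes of the neuronal cytoskeleton, chosen by name and found by their Ensembl identifiers among the 51912 identifiers of the count table. They code for peripherin (Prph), the neurofilament light, medium and heavy chains (Nefl, Nefm, Nefh), alpha-internexin (Ina), nestin (Nes), syncoilin (Sync), the beta tubulin of neurons (Tubb3) and the tubulin-binding stathmins Stmn2 and Stmn3. All 10 were measured in 32 libraries of nuclear RNA from the longitudinal muscle layer with its myenteric plexus of C57BL/6 mice kept specific pathogen-free. Every mouse had received AAV9-CaMKII-EGFPKASH by vein 5 weeks earlier, a virus that labels the nuclear envelope of cells in which its CaMKII promoter is active with EGFP. The EGFP+ (neuronal) and EGFP- (non-neuronal) nuclei were sorted from the same kind of tissue, so the gate rests on transduction and on that promoter, and an untransduced neuron falls in the EGFP- sort. With mice from the animal facilities of the University of Bern and the Francis Crick Institute, and colon and small intestine (SI) taken apart, the 8 groups of 4 libraries were neuronal and non-neuronal nuclei of Bern colon, Bern SI, Crick colon and Crick SI. The labels give no age or sex and do not say whether numbered libraries came from separate animals, so p-values measure the spread between libraries, which may be technical in part.

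Intermediate filaments of neurons are built from a few related subunits that co-assemble along the axon. Neurofilament light, medium and heavy chains, alpha-internexin and peripherin are the neuronal subunits, and peripherin is typical of peripheral neurons, including those of the gut. Nestin is known from neural progenitors, glia, and growing vessels and muscle, and syncoilin is a filament-binding protein best known from striated muscle. Stathmins bind tubulin dimers and promote microtubule turnover in growing axons, and Tubb3 is a widely used label of neurons. In bulk libraries such as these, fewer cells of a type and less RNA per cell cannot be told apart. Levels are in CPM, which relates counts to the library total after TMM scaling, differences as log2 fold change ± SE from edgeR's quasi-likelihood test, and adjusted p-values are Benjamini-Hochberg values over all genes tested, with a threshold of 0.05.

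The 16 libraries of Bern mice had totals of 2394513 to 4618395 estimated counts, and the 16 of Crick mice 3788206 to 8350887. The number of genes with a count was 15641 to 22406 in Bern and 25675 to 34994 in Crick libraries, ranges that do not overlap. The other neuronal markers, 14 genes such as Elavl4 that hold none of the 10, summed to 2680 to 5462 CPM in neuronal nuclei and 118 to 1860 CPM in non-neuronal nuclei, and all 14 rose in neuronal nuclei. The values of 6 libraries stood apart, or were named so in an earlier analysis of these data: Crick SI non-neuronal 2 and Crick SI neuronal 2, with 23.6% and 16% of counts from mitochondrial genes; Bern colon non-neuronal 1 and 2 and Bern SI non-neuronal 1, with neuronal marker sums of 1860, 1584 and 1063 CPM; and Crick colon non-neuronal 3, whose neuronal marker sum of 203 CPM was the lowest of its group. Leaving these 6 out kept the counts of 9 genes higher and 1 lower given next. Bern colon non-neuronal 1 and 2 and Bern SI non-neuronal 1 were among them for high neuronal marker sums. Their removal can itself widen a difference between sorts, so fits without the 6 are no independent check of it.

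Against non-neuronal nuclei, 9 of the 10 genes were higher in neuronal nuclei and Nes was lower, where 43.5% of the 21521 genes tested passed (21.9% higher and 21.6% lower). The median log2 fold change of the 10 was 3.34, against -0.01 over all genes tested. Prph and Ina had the largest fold changes and Sync the smallest of the 9. The same 9 and 1 passed with DESeq2 and with limma, and the count held without any 1 of the 32 libraries.

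**Figure D1:**
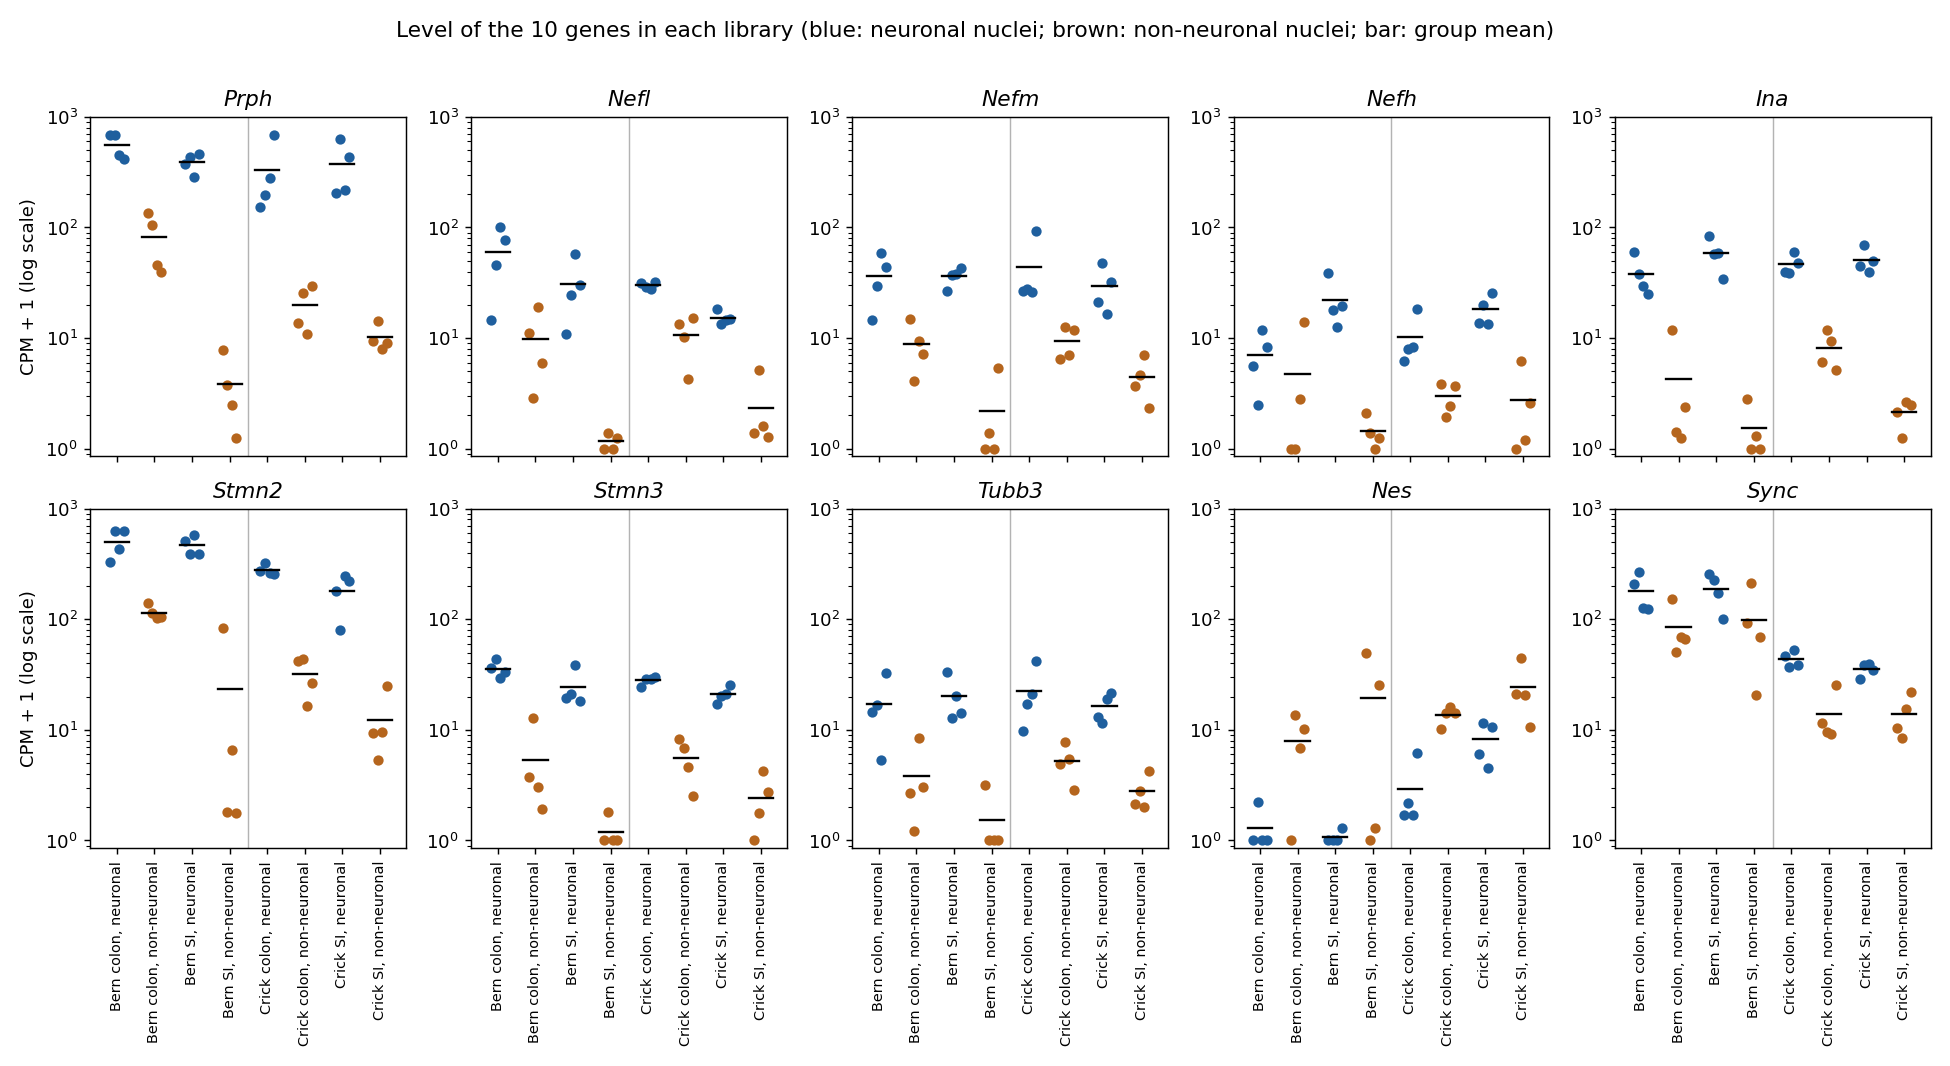
CPM plus 1 on a log axis for the 10 genes in each of the 32 libraries, grouped by facility, segment and sort; points are libraries and bars are group means (n = 4 each). Neuronal nuclei sit above non-neuronal nuclei for Prph, Ina, Stmn2 and Stmn3 in each facility and segment, Nes runs the other way, and Sync is higher in Bern than in Crick.

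Prph, on chromosome 15 from 99055174 to 99058978 (GRCm38, plus strand), codes for the filament protein most typical of peripheral neurons. Its level in the 16 neuronal libraries was lowest at 153 CPM, had a median of 423 CPM and reached 683 CPM, against 0.256, 11.3 and 133 CPM in the 16 non-neuronal libraries. The lowest neuronal library thus lay above the highest non-neuronal one. The fold change was 4.84 ± 0.29 on the log2 scale (edgeR adjusted p = 3.43e-16). In neuronal nuclei the group means were 557 ± 145 CPM in Bern colon, 387 ± 77.3 CPM in Bern SI, 328 ± 242 CPM in Crick colon and 371 ± 202 CPM in Crick SI (SD, n = 4 each). These means overlap within their spread, and no segment or facility comparison of neuronal nuclei called Prph. Crick colon library 4, at 683 CPM, and Crick SI library 2, at 630 CPM, were the highest of their groups.

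The promoter of Prph is shown because it heads the gene with the highest level and the largest difference between sorts. It spans 250 bases before to 50 bases after the RefSeq start (GRCm38.p6, chr15:99054924-99055223, plus strand), 5′ to 3′, with a TATAAA box and a reverse-strand GGGCGG (read as CCGCCC) in capitals:
Prph: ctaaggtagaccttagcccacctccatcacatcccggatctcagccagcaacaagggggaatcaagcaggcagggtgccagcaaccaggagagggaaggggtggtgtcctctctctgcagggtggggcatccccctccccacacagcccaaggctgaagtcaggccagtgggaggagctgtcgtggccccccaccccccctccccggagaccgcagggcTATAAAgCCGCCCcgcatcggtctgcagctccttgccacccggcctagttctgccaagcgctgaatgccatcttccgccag
RefSeq promoters were at hand for 6 of the 10 genes (Prph, Nes, Sync, Tubb3, Ina, Stmn3). Searched on both strands, TATAAA was present in Prph alone of the 6, with its first base 31 bases before the start, and in 13.6% of 32851 mouse promoters. GGGCGG, the letters bound by SP family factors, was present in 5 of the 6, all but Stmn3, and in 35.7% of promoters. TTCAGCACC, the left part of the site of the neuronal repressor REST, was present in none of the 6 and in 0.371% of promoters. These matches describe letters in a window and do not show binding.

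The genes whose log2 level ran most like that of Prph over the 32 libraries were Ap3b2, Rimbp2 and Ptprn (Pearson r = 0.98 each), then Pcbp3 and Kif5a (r = 0.97 each). These r values describe 32 libraries that share the difference between sorts, and carry no test.

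Per kb of exon, the neurofilament chain genes had lower levels than Prph and differed among themselves. Nefl lies on chromosome 14 from 68083863 to 68089095 (plus strand), Nefm overlaps it on the minus strand from 68082590 to 68124846, with 1108 exonic bases in common, and Nefh lies on chromosome 11 from 4938754 to 4948064 (minus strand). The kit is not stated to keep strand, so reads in the stretch shared by Nefl and Nefm cannot be told apart by strand. Nefl had 9.82, 27.2 and 100 CPM (lowest, median, highest) in neuronal nuclei, against 0, 2.55 and 18.2 CPM in non-neuronal nuclei (log2 fold change 3.77 ± 0.43, edgeR adjusted p = 2.15e-09). The lowest Nefl value among neuronal libraries was in Bern SI library 1 and the highest in Bern colon library 3, and 10 of the 16 neuronal libraries exceeded every non-neuronal one. Nefm had 13.7, 30 and 92.1 CPM in neuronal nuclei and 0, 4.92 and 14 CPM in non-neuronal nuclei (3.08 ± 0.39, edgeR adjusted p = 3.23e-08), with 15 of 16 neuronal libraries above all others. Nefh, the heavily phosphorylated chain that appears late as axons mature, was also the lowest of the 3 per kb, with 1.46, 12 and 37.5 CPM in neuronal nuclei and 0, 0.999 and 13 CPM in non-neuronal nuclei (2.95 ± 0.58, edgeR adjusted p = 6.57e-05). The sorts overlapped more for Nefh: 6 of 16 neuronal libraries exceeded every non-neuronal one, the highest of which, at 13 CPM, was Bern colon non-neuronal 4. Ina, a subunit expressed early in neurons, lies on chromosome 19 from 47014698 to 47025327 (plus strand) and shares 456 exonic bases with Nt5c2 on the other strand. It had 23.8, 45.3 and 82.2 CPM in neuronal nuclei, against 0, 1.42 and 10.9 CPM in non-neuronal nuclei, with no overlap (4.60 ± 0.42, edgeR adjusted p = 1.72e-11).

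The microtubule genes of the set showed the same direction. Stmn2, on chromosome 3 from 8509360 to 8561606 (plus strand), had 79.5, 326 and 629 CPM in neuronal nuclei, against 0.767, 24.7 and 138 CPM in non-neuronal nuclei (3.41 ± 0.37, edgeR adjusted p = 7.81e-10). Its sorts did not overlap within any facility and segment, although Crick SI neuronal 2, at 79.5 CPM, was below the Bern colon non-neuronal libraries. Stmn3, on chromosome 2 from 181306459 to 181314500 (minus strand), had 16.2, 26.1 and 42.8 CPM in neuronal nuclei, against 0, 1.64 and 11.9 CPM in non-neuronal nuclei, with no overlap (4.04 ± 0.45, edgeR adjusted p = 1.4e-09). Tubb3, on chromosome 8 from 123411424 to 123422015 (plus strand), had 4.31, 15.9 and 40.6 CPM in neuronal nuclei, against 0, 1.84 and 7.44 CPM in non-neuronal nuclei (3.26 ± 0.48, edgeR adjusted p = 5.11e-07). Of the 16 neuronal libraries, 15 lay above all non-neuronal ones, and Bern colon 3, at 4.31 CPM, within their range.

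Levels between genes were compared as CPM per kb of exon. By the mean over the 16 neuronal libraries, the order was Prph (205 CPM per kb), Stmn2 (63.7), Sync (39), Stmn3 (23.1), Ina (14.7), Nefl (9.74), Tubb3 (9.66), Nefm (6.13), Nefh (3.35) and Nes (0.371). The place of Sync rests on Bern, where it had 63.2 CPM per kb in colon and 65.9 in SI, against 15 and 12.1 in Crick colon and SI. In the Crick libraries Stmn3, at 23.8 CPM per kb in colon and 17.6 in SI, stood above Sync, and Ina, at 14.1 and 15.4, was close to it. Nefl and Tubb3 did not differ beyond their spread. Prph ran from 76.6 to 342 CPM per kb and Stmn2 from 14.2 to 112 CPM per kb, so their ranges overlap, as do those of every pair of neighbours in the order. With the longest annotated transcript in place of all exons the order stayed the same, while the level of Stmn2 came to 105 CPM per kb and that of Nefm to 9.64.

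Nes was the gene that went against the rest. It lies on chromosome 3 from 87971078 to 87980451 (plus strand). It had 0, 0.701 and 10.5 CPM (lowest, median, highest) in neuronal nuclei, against 0, 13 and 48.9 CPM in non-neuronal nuclei (log2 fold change -4.06 ± 0.67, edgeR adjusted p = 4.18e-06). No count was found in 6 of the 16 neuronal libraries, all from Bern, and in 2 of the 16 non-neuronal libraries. In Bern SI the neuronal libraries held 1 count of Nes in all, against 233 in the non-neuronal libraries, which had 48.9, 0, 0.295 and 24.5 CPM, so that libraries 1 and 4 carried nearly all of it. The ratio of counts per total there was 245-fold higher in non-neuronal nuclei, with a 95% exact interval of 43.6 to 9729 that covers counting error only. In Crick colon the sorts did not overlap (0.704, 1.2, 0.699 and 5.16 CPM in neuronal nuclei, against 9.23, 13.3, 15.2 and 13.3 CPM in the EGFP- sort), but edgeR did not call the difference (-2.67 ± 1.18, adjusted p = 0.113). In Crick SI the sorts overlapped (5.08, 10.5, 3.56 and 9.71 CPM in neuronal nuclei, against 20.2, 43.5, 19.5 and 9.69 CPM). The difference was smaller there and not called (-1.68 ± 1.12, edgeR adjusted p = 0.462).

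The genes most like Nes over the 32 libraries were Pm20d1 (r = 0.85), Vamp8, Tnfsf10 and Hnf4a (r = 0.84 each) and Cd38 (r = 0.82), of which Hnf4a is a transcription factor of gut epithelium. Several marker lists of other cells moved with the sort in the same direction as Nes. Those of interstitial cells of Cajal, pacemaker cells of the gut muscle, were split (1 of 4 genes higher, 3 lower). Their sum averaged 835 CPM in neuronal nuclei and 434 CPM in non-neuronal nuclei. Glial markers summed to 10.2 to 39.8 CPM in neuronal nuclei and 52.7 to 342 CPM in non-neuronal nuclei (6 of 7 genes lower). Endothelial markers summed to 0.382 to 22.5 CPM in neuronal nuclei, against 42.3 to 1082 CPM in the non-neuronal sort (6 of 6 lower). Smooth muscle markers summed to 373 to 1271 CPM in neuronal nuclei, against 5138 to 21824 CPM in the non-neuronal sort (8 of 8 lower). Epithelial markers reached 44.4 to 121 CPM in neuronal nuclei, against 123 to 11633 CPM in the non-neuronal sort (4 of 6 lower, 1 higher). Proliferation genes reached 0.764 to 27 CPM in neuronal nuclei, against 5.52 to 683 CPM in the non-neuronal sort (4 of 4 tested lower). Fibroblast (5 of 6), mesothelial (4 of 4) and macrophage markers (5 of 6) were lower in neuronal nuclei too. Between segments of non-neuronal nuclei not all of these lists ran with Nes, which averaged 9.83 CPM in colon and 20.8 CPM in SI (-1.19 ± 0.82, not called). Epithelial sums averaged 5085 CPM in Bern colon and 5183 CPM in Crick colon, against 516 and 506 CPM in SI. Endothelial, proliferation and macrophage sums were higher in colon too, smooth muscle sums were lower, and glial sums went both ways. Fibroblast and mesothelial sums were lower in colon, as Nes was. Fibroblast sums averaged 618 CPM in Bern colon and 538 CPM in Crick colon, against 1125 and 853 CPM in SI. Mesothelial sums averaged 61.2 and 39.5 CPM in colon, against 103 and 210 CPM in SI, in the same order. The part of these cells in the level of Nes was not tested. The promoter of Nes (chr3:87970843-87971142, GRCm38.p6, plus strand), shown as that of the gene with the opposite direction, holds 2 copies of GGGCGG, both on the reverse strand and in capitals, and no TATAAA:
Nes: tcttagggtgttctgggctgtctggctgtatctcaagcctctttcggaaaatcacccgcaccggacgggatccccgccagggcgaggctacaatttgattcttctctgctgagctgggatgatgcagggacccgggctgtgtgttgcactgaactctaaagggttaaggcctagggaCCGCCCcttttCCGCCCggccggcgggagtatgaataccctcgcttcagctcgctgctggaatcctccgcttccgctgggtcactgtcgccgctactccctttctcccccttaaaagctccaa

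Sync lies on chromosome 4 from 129287617 to 129308559 (plus strand) and had the smallest rise of the 9. It had 27.9, 76 and 268 CPM in neuronal nuclei, against 7.47, 22.6 and 211 CPM in non-neuronal nuclei (1.29 ± 0.24, edgeR adjusted p = 3.37e-05). Only 3 of 16 neuronal libraries exceeded every non-neuronal library, and the highest levels of both sorts were in Bern libraries. Its mean in non-neuronal nuclei was 30.1% to 51.8% of the neuronal mean in the 4 combinations of facility and segment. Striated muscle markers, which mark the tissue in which syncoilin is best known, summed to 0.382 to 10.3 CPM in neuronal nuclei and 6.1 to 122 CPM in non-neuronal nuclei.

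The difference between sorts was then read in each facility and segment. In Bern colon 7 of the 10 genes were higher and 1 lower (25.2% of all genes passed, 10.3% higher and 14.9% lower). In Bern SI they numbered 8 and 1 (30.1%, 17.2% higher and 12.9% lower), in Crick colon 6 and 0 (18.6%, 7.46% and 11.2%), and in Crick SI 7 and 0 (11.6%, 6.52% and 5.06%). Without the 6 libraries that stood apart the counts were 5 and 1, 8 and 1, 5 and 0, and 8 and 0 in the same order. edgeR called Prph, Ina, Nefm, Stmn2 and Stmn3 in all 4, and Nes in Bern only. The lack of a Nes call in Crick turned on the fit. limma called Nes in Crick colon (-3.11, adjusted p = 0.0381). With only the libraries compared, edgeR called Nes in Crick colon and Crick SI (adjusted p = 0.00539 and 0.0228). Tubb3 was not called in Crick colon by edgeR (adjusted p = 0.0667) but was by DESeq2 (0.0189) and limma (0.0178). edgeR called Sync in Crick colon (1.71 ± 0.50, adjusted p = 0.0119), and limma called it in Bern colon and Bern SI too (adjusted p = 0.0264 and 0.0122). edgeR called Nefh in Bern SI (5.58 ± 1.35, adjusted p = 0.00182). In Crick SI the sorts did not overlap for Nefh, and its call turned on the fit (3.30 ± 1.16, edgeR adjusted p = 0.0579, DESeq2 0.00967, limma 0.000684, edgeR without the 6 libraries that stood apart 0.00563). In Bern colon Nefh had 4.58, 1.46, 10.9 and 7.26 CPM in neuronal nuclei, against 0, 0, 1.8 and 13 CPM in non-neuronal nuclei, which overlap. Whether a call in one place and not in another marks a difference was tested only by the interactions given further on.

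Some of these values turned on 1 library. Without Bern SI non-neuronal 1 the log2 fold change in Bern SI was 7.58 for Stmn2 (4.38 with it) and 9.48 for Tubb3 (5.15 with it); Tubb3 then had no count on the non-neuronal side, so its fitted value is no bound. Without Bern SI non-neuronal 4 it was 7.84 for Nefm (4.77 with it). In Bern colon, leaving out non-neuronal 1 gave 5.70 for Ina (3.56 with it), and leaving out neuronal 2 gave -8.01 for Nes (-4.31 with it). Calls were lost for Nefm and Tubb3 in Bern colon without any of several libraries (adjusted p up to 0.0875 and 0.133), for Stmn2 there without non-neuronal 4 (0.0504), for Nes there without neuronal 3 (0.0526), for Nefm and Stmn3 in Crick colon (up to 0.169 and 0.0735) and for Tubb3 in Crick SI (up to 0.0815). Nefl and Stmn3 each had 2 counts in the Bern SI non-neuronal libraries together, against 396 and 324 in the neuronal ones. The ratios of counts per total were 188 (95% exact interval 51.7 to 1558) for Nefl and 154 (42.3 to 1276) for Stmn3.

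**Figure D2:**
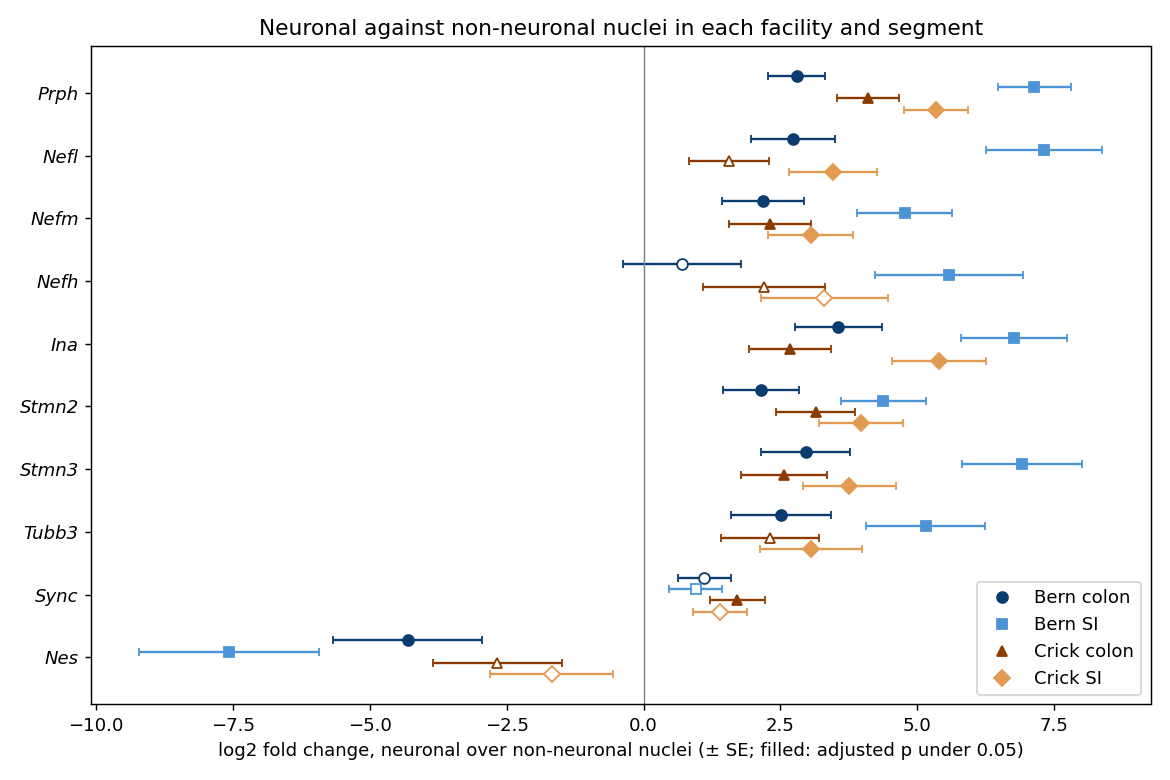
log2 fold change of neuronal over non-neuronal nuclei with its SE for the 10 genes in each facility and segment (4 libraries against 4 in each); filled symbols passed an adjusted p of 0.05 in edgeR. Prph lies at 7.14 in Bern SI and 2.80 in Bern colon, and Nes is the gene left of 0.

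The rise in neuronal nuclei was smaller in colon than in SI for Prph (-2.79 ± 0.52, edgeR adjusted p = 0.000837), Nefl (-3.24 ± 0.82, 0.0127) and Ina (-2.97 ± 0.78, 0.0162) in the interaction of segment and sort, where 6.48% of genes passed, 1.09% higher and 5.39% lower. Ina lost its call without Bern colon non-neuronal 1 (-1.90, adjusted p = 0.0888). The count of 3 genes was 5 with DESeq2 and 4 with limma, and 6 without the 6 libraries that stood apart. Of the 14 other neuronal markers 8 passed in the same direction, with a median of -2.10 against -0.22 over all genes.

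The segments were then read in each sort for these 3 genes. In neuronal nuclei colon minus SI was 0.11 ± 0.28 for Prph, 0.94 ± 0.36 for Nefl and -0.43 ± 0.26 for Ina, none called. In non-neuronal nuclei Prph averaged 49.6 CPM in colon and 6.01 CPM in SI, a log2 fold change of 2.87 ± 0.51 (edgeR adjusted p = 0.00147), and Nefl averaged 9.27 CPM in colon and 0.754 CPM in SI (4.12 ± 0.90, adjusted p = 0.00617). These 2 of the 10 passed in this comparison, where 9.32% of all genes did, 5.79% higher in colon and 3.54% lower. Ina averaged 5.18 CPM in colon and 0.825 CPM in SI there and did not pass (2.54 ± 0.93, edgeR adjusted p = 0.0894). Prph had 133, 105, 44.4 and 38.7 CPM in Bern colon and 12.8, 24.5, 9.91 and 28.8 CPM in Crick colon, against 6.83, 2.77, 1.47 and 0.256 CPM in Bern SI and 8.39, 13.4, 6.9 and 8.07 CPM in Crick SI. The segments did not overlap in Bern and overlapped in Crick. DESeq2 and limma called 5 genes higher in colon in place of 2. Beside this, the summed 14 neuronal markers reached 812 to 1860 CPM in Bern colon and 203 to 404 CPM in Crick colon, against 130 to 1063 CPM in Bern SI and 118 to 214 CPM in Crick SI. As a share of the neuronal mean, the non-neuronal level of these markers was 28.4% in Bern colon, 10.5% in Crick colon, 7.43% in Bern SI and 5.71% in Crick SI. For Prph the shares were 14.4%, 5.79%, 0.732% and 2.47% in the same places. The other neuronal genes of the set ran from 8.74% (Ina) to 61% (Nefh) in Bern colon and from 11.2% (Stmn2) to 33.5% (Nefl) in Crick colon. They ran from 0.546% (Nefl) to 4.82% (Stmn2) in Bern SI and from 2.25% (Ina) to 12% (Nefm) in Crick SI. The part of neurons left in the EGFP- sort in these levels was not tested.

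**Figure D3:**
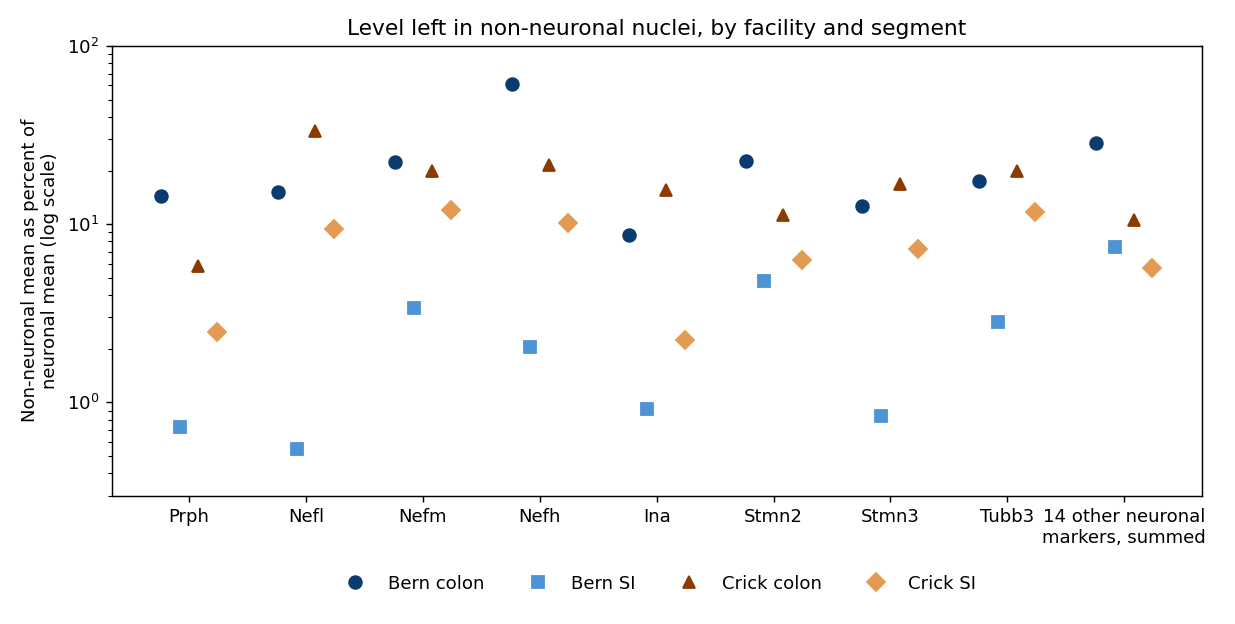
Mean level in non-neuronal nuclei as a percent of the mean in neuronal nuclei, on a log axis, for the 8 neuronal genes of the set and for 14 other neuronal markers summed, in each facility and segment (4 libraries on each side). The colon points lie above the SI points of the same facility for each gene, for instance 14.4% and 0.732% for Prph in Bern.

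Among neuronal nuclei, colon and SI were compared over both facilities. None of the 10 genes passed in edgeR, where 5.51% of 17419 genes did, 1.97% higher in colon and 3.54% lower; 2 had an unadjusted p under 0.05, and DESeq2 and limma each called 1, Nefh. Nefh averaged 7.64 CPM in colon and 19.1 CPM in SI (-1.40 ± 0.44, edgeR adjusted p = 0.0645, DESeq2 adjusted p = 0.01, limma adjusted p = 0.0393). It had 4.58, 1.46, 10.9 and 7.26 CPM in Bern colon and 5.16, 7.02, 7.23 and 17.5 CPM in Crick colon, against 37.5, 17, 11.6 and 18.6 CPM in Bern SI and 12.7, 18.8, 12.4 and 24.7 CPM in Crick SI. Segments did not overlap in Bern, and in Crick overlapped through colon library 4. edgeR called Nefh without Crick colon neuronal 4 (adjusted p = 0.0384) and without Bern colon neuronal 3 (0.0329). Nefl leaned the other way, with 43.8 CPM in colon and 22.1 CPM in SI (0.94 ± 0.36, edgeR adjusted p = 0.15), and edgeR called it without Bern colon neuronal 1 (adjusted p = 0.0368). Its values were 13.7, 44.7, 100 and 75.4 CPM in Bern colon and 30.3, 27.9, 26.6 and 31.1 CPM in Crick colon, against 9.82, 23.6, 56.8 and 29.1 CPM in Bern SI and 17.5, 12.5, 13.5 and 13.8 CPM in Crick SI. Here the segments were apart in Crick and overlapped in Bern. The other 8 genes had log2 fold changes between -0.43 and 0.45. That of Nes (-0.07 ± 0.67) averages unlike facilities. Nes had a mean of 1.94 CPM in Crick colon and 7.21 CPM in Crick SI. In Bern it rested on 5 counts in colon and 1 in SI. The difference between facilities was wide and not called (3.72 ± 1.89, edgeR adjusted p = 0.755).

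The opposite lean of Nefl and Nefh was followed within libraries, by a ratio chosen after their values were seen, so that its test describes these libraries and is no independent evidence. The log2 ratio of Nefl to Nefh counts (with 0.5 added to each) averaged 3.23 ± 1.34 in Bern colon and 0.37 ± 1.73 in Bern SI, and 1.80 ± 0.71 in Crick colon and -0.21 ± 0.60 in Crick SI (SD, n = 4 each). Colon minus SI was 2.43 over both facilities, 2.86 in Bern and 2.01 in Crick (exact two-sided permutation within facilities, p = 0.00163, where 0.000408 is the smallest it can give). Leaving out any 1 library gave 2.05 to 2.75. Per kb of exon, Nefh made up 7.32% ± 5.55 of the summed neurofilament chains in Bern colon and 28.6% ± 19.2 in Bern SI, and 12.1% ± 2.51 in Crick colon and 31.6% ± 5.54 in Crick SI. Nefl made up 66.4% ± 8.56 in Bern colon and 40.9% ± 19.2 in Bern SI, and 51.1% ± 13.5 in Crick colon and 33.3% ± 10.6 in Crick SI. The library with the most Nefh, Bern SI 1, had 56% Nefh, and the one with the least, Bern colon 2, had 1.97%. These shares rest on 84 to 981 counts per library over the 3 genes.

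**Figure D4:**
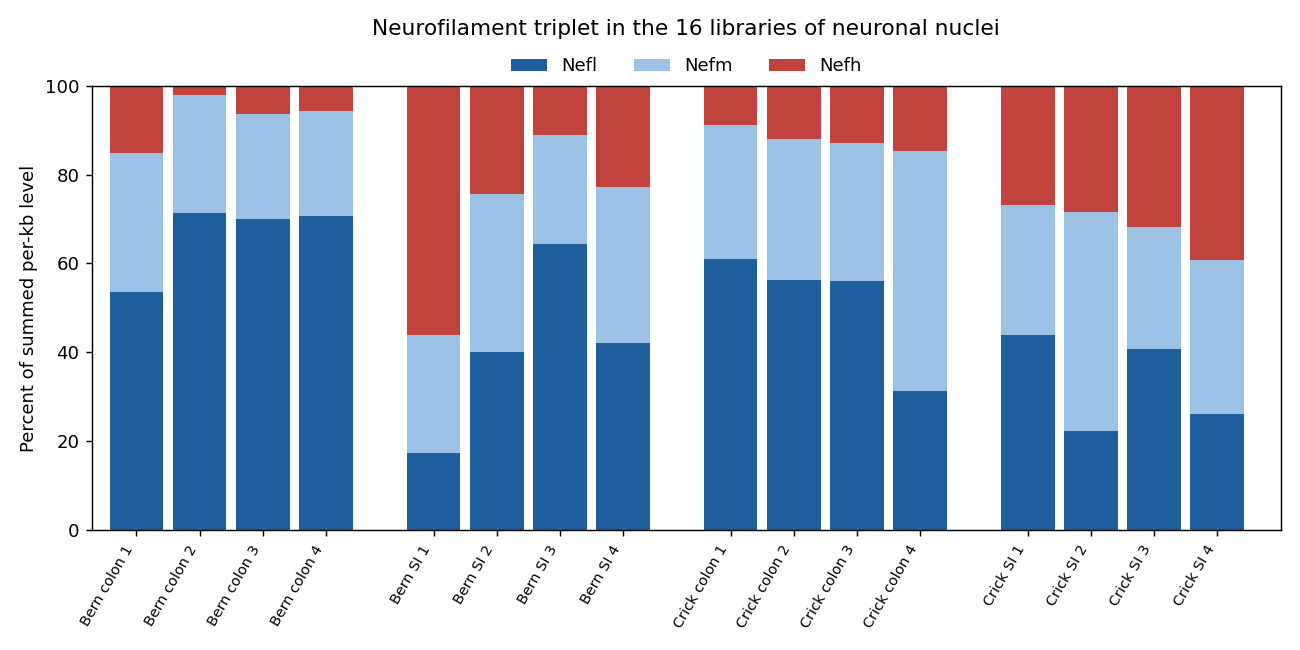
Share of Nefl, Nefm and Nefh in their summed level per kb of exon, in percent, in each of the 16 libraries of neuronal nuclei. Nefh makes up 1.97% to 15.1% in Bern colon and 11.1% to 56% in Bern SI, and 8.79% to 14.8% in Crick colon and 26.8% to 39.3% in Crick SI.

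Interstitial cells of Cajal, pacemaker cells of the gut muscle, had markers that fell in the same comparison (4 of 4 genes lower in colon, median -6.57). Their sum was 312 to 469 CPM in Bern colon and 263 to 373 CPM in Crick colon, against 659 to 2318 CPM in Bern SI and 1187 to 1885 CPM in Crick SI neuronal nuclei. Of 8 smooth muscle genes, 3 were lower in colon too (median -0.62), while none of the 14 other neuronal markers passed (median 0.06). The share of mitochondrial counts in neuronal nuclei was also lower in colon without overlap, at 0.423% to 0.598% in Bern colon and 0.826% to 1.39% in Crick colon, against 2.75% to 6.82% in Bern SI and 2.76% to 16% in Crick SI. The part of these cells and of the mitochondrial share in the values of Nefh and in its ratio to Nefl was not tested.

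Between facilities, Sync differed in each comparison. In colon neuronal nuclei it had 209, 268, 125 and 122 CPM in Bern, against 45.7, 35.9, 51.8 and 38 CPM in Crick (2.06 ± 0.33, edgeR adjusted p = 0.00343). In SI neuronal nuclei it had 257, 226, 171 and 100 CPM in Bern, against 27.9, 37.7, 38.6 and 34 CPM in Crick (2.43 ± 0.33, adjusted p = 0.0008). Both pairs were fully apart. In non-neuronal nuclei Sync averaged 90.7 CPM in Bern and 13 CPM in Crick over both segments (2.82 ± 0.44, edgeR adjusted p = 0.000506). There it had 152, 49.3, 68.3 and 66 CPM in Bern colon, against 10.6, 8.65, 8.09 and 24.3 CPM in Crick colon, which do not overlap. In SI it had 91.6, 211, 19.7 and 68 CPM in Bern, against 9.34, 7.47, 14.4 and 21 CPM in Crick, which overlap through Bern library 3. Striated muscle markers moved the same way in non-neuronal nuclei, with 3 of 3 tested positive, 1 passing and a median of 1.82. Their sum averaged 61.7 CPM in Bern colon and 43.2 CPM in Bern SI, against 14.3 CPM in Crick colon and 11.3 CPM in Crick SI, and their part in the level of Sync was not tested. In neuronal nuclei none of the 6 passed the filter on low counts, and their sum reached at most 10.3 CPM. Of the 10 genes 1 passed in neuronal colon, 3 in neuronal SI and 1 in non-neuronal nuclei. The share of all genes that passed was 3.09% in neuronal colon (1.89% higher in Bern, 1.19% lower), 0.683% in neuronal SI (0.568% and 0.115%) and 9.29% in non-neuronal nuclei (4.35% and 4.94%). Scaling bore on these counts: with upper quartile scaling in place of TMM, genes higher and lower in Bern numbered 209 and 450 in place of 330 and 208 in neuronal colon, 28 and 18 in place of 99 and 20 in neuronal SI, and 463 and 1380 in place of 833 and 947 in non-neuronal nuclei, and the median log2 fold change of all genes came to -0.20, -0.18 and -0.32 in place of 0.02, 0.03 and -0.06. Under that scaling Sync stood at 1.84, 2.22 and 2.58 (edgeR adjusted p = 0.0088, 0.00289 and 0.00163). Sync was the only one of the 10 called in all 3, and it was called there under every alternative fit and without any 1 library of each fit. The facility difference of Sync did not itself differ detectably between sorts (-0.52 ± 0.48, edgeR adjusted p = 0.679).

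The end of Sync shares 782 exonic bases with Rbbp4, a chromatin factor gene on the other strand. Rbbp4 averaged 125 CPM in Bern and 94.9 CPM in Crick in neuronal colon (0.39 ± 0.27), 106 CPM in Bern and 83.7 CPM in Crick in neuronal SI (0.34 ± 0.27), and 55.8 CPM in Bern and 56.6 CPM in Crick in non-neuronal nuclei (-0.01 ± 0.33), none of which passed. Within 1 Mb on either side of Sync, 0 of 37 other genes tested passed in neuronal colon, 1 of 37 higher in neuronal SI, and 3 of 38 higher and 1 lower in non-neuronal nuclei, close to the 9.29% of all genes there. Chosen for these calls, Dcdc2b, a doublecortin-domain gene whose start lies 321 kb from that of Sync, averaged 24.6 CPM in Bern and 2.31 CPM in Crick in neuronal SI (3.36 ± 0.74, edgeR adjusted p = 0.0339), and it was higher in non-neuronal nuclei too (2.10 ± 0.57, 0.0229). Tmem234 (0.97 ± 0.27, adjusted p = 0.0259) and the orexin receptor gene Hcrtr1 (1.88 ± 0.58, 0.0427) were also higher in Bern non-neuronal nuclei, and Fndc5 was lower (-4.62 ± 1.02, 0.00739). Uncalled leans to Bern were seen for Tmem234 in neuronal colon (1.13 ± 0.37) and SI (0.84 ± 0.37). C77080, 68 kb from Sync, leaned so in all 3 comparisons (1.94 ± 0.58, 1.32 ± 0.56 and 0.97 ± 0.43). Over all neighbours the median was 0.40 in neuronal colon (-3.87 to 4.84), 0.17 in neuronal SI (-1.56 to 3.36) and -0.11 in non-neuronal nuclei (-4.62 to 2.10). The promoter of Sync is shown as that of the gene called in each facility comparison (chr4:129287371-129287670, GRCm38.p6, plus strand). It holds GGGCGG on the reverse strand at 3 places, in capitals, and no TATAAA:
Sync: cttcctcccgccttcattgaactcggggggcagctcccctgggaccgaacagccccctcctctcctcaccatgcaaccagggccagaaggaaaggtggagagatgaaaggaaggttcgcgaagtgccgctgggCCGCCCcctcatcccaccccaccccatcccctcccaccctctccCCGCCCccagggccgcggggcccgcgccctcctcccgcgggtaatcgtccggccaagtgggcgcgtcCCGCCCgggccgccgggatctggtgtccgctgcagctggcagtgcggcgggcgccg

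Genes much like Sync over the 32 libraries were Numbl (r = 0.89), Map3k12 and Tmem181a (r = 0.87 each) and Rai1 (r = 0.83). Facility goes with depth and with the number of genes detected in these data, so facility, depth and library complexity cannot be told apart by this design.

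**Figure D5:**
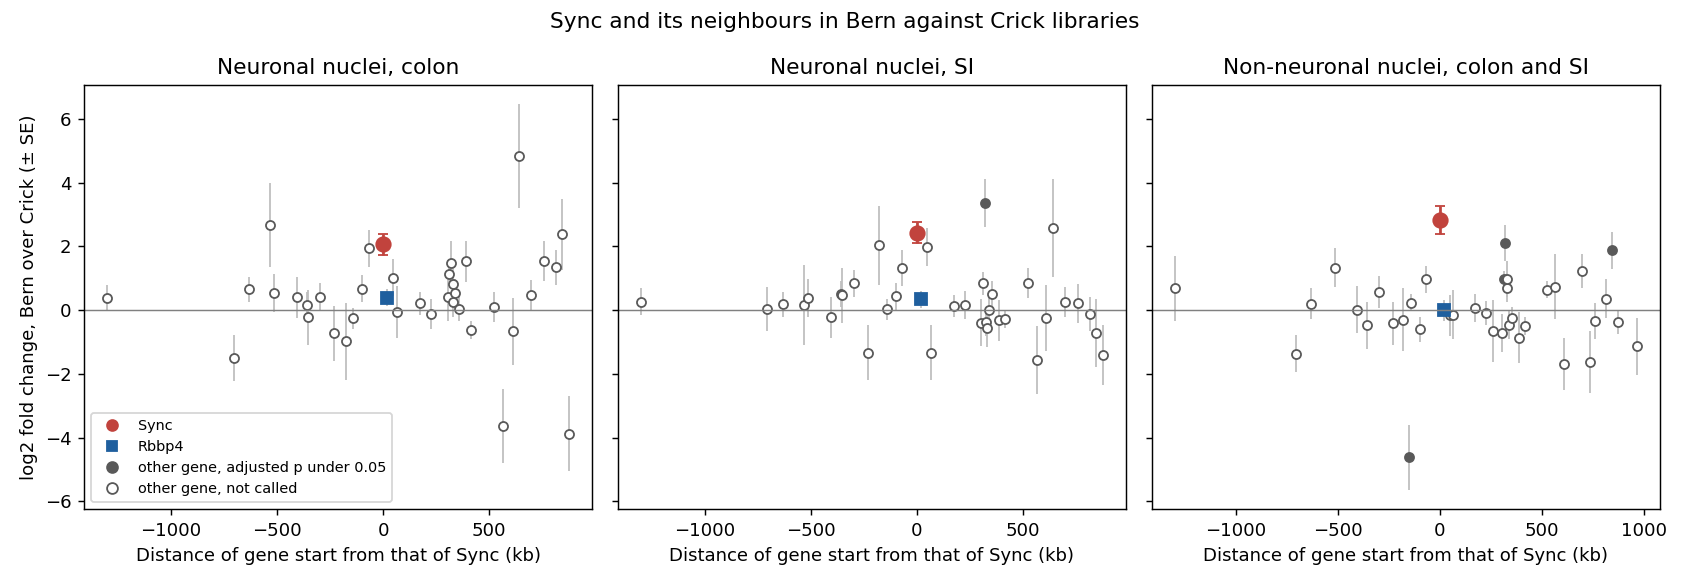
log2 fold change of Bern over Crick with its SE for Sync (red), Rbbp4 (blue square) and other genes near Sync, against the distance of their start from that of Sync in kb, in neuronal nuclei of colon and SI (4 libraries against 4) and in non-neuronal nuclei (8 against 8). Sync lies at 2.06, 2.43 and 2.82, and Rbbp4 at 0.39, 0.34 and -0.01; 0, 1 and 4 of the other genes passed.

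In SI neuronal nuclei Stmn2 and Nes also passed between facilities. Stmn2 had 512, 390, 583 and 385 CPM in Bern, against 178, 79.5, 247 and 219 CPM in Crick, with no overlap (1.37 ± 0.30, edgeR adjusted p = 0.0329). In colon neuronal nuclei it had 332, 629, 429 and 622 CPM in Bern, against 274, 320, 259 and 256 CPM in Crick, also apart but not called (0.85 ± 0.30, edgeR adjusted p = 0.104). Nes had 0, 0, 0 and 0.291 CPM in Bern SI, against 5.08, 10.5, 3.56 and 9.71 CPM in Crick SI, with 1 count against 182. The ratio of counts per total was 111-fold higher in Crick, with a 95% exact interval of 19.6 to 4400, and the edgeR adjusted p was 0.0471. Both SI calls were thin: Stmn2 lost its call without 9 of the 16 neuronal libraries left out in turn (adjusted p up to 0.116), and Nes without 11 (up to 0.153). Without the libraries that stood apart they had adjusted p of 0.0629 and 0.105. The other 7 genes did not pass in either neuronal facility comparison, nor did any of the 9 other than Sync in non-neuronal nuclei. The 14 other neuronal markers had positive fold changes in 13 of 14 cases in neuronal colon and 12 of 14 in neuronal SI, with 2 and 1 passing. Their sum was 3512 to 5288 CPM in Bern colon, against 2725 to 3373 CPM in Crick colon. In SI it was 4940 to 5462 CPM in Bern, against 2680 to 2941 CPM in Crick. The sums were thus apart in the direction of Stmn2, and the part of this shift in its level was not tested. Without Crick colon neuronal 4, Prph passed in neuronal colon (adjusted p = 0.0374).

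No gene of the set passed in the interaction of facility with sort, where 0.204% of genes did, 0.153% higher and 0.0511% lower (3 had an unadjusted p under 0.05; DESeq2 and limma called 0). None passed in the interaction of segment with facility among neuronal nuclei, where 0.00574% did (0 had an unadjusted p under 0.05; DESeq2 and limma called 0).

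Other cytoskeleton genes set these values in context, by the comparison of sorts in which 43.5% of all genes tested passed (21.9% higher and 21.6% lower). Among 12 tested intermediate filament genes outside the set, 1 was higher and 8 were lower in neuronal nuclei (median -2.58). The 1 that rose was Bfsp1, a lens filament gene, at 1.31 CPM in neuronal nuclei and 0.552 CPM in non-neuronal nuclei (2.14 ± 0.82, edgeR adjusted p = 0.0333). The largest falls were in the epithelial keratins Krt19 (-6.52 ± 0.51) and Krt18 (-5.20 ± 0.88), the astroglial and enteric glial filament Gfap (-4.94 ± 0.70, 0.669 CPM in neuronal nuclei and 11.7 CPM in non-neuronal nuclei) and Krt20 (-4.33 ± 0.55). Des, the muscle filament desmin, fell to 64.2 CPM in neuronal nuclei, against 566 CPM in non-neuronal nuclei (-3.15 ± 0.18), and Vim, vimentin, was at 93.7 CPM in neuronal nuclei, against 196 CPM in non-neuronal nuclei (-1.11 ± 0.21). All 6 passed in edgeR (adjusted p up to 3.18e-05).

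Of 11 tested tubulin genes other than Tubb3, 4 were higher and 2 lower (median 0.28), not far from the 43.5% of all genes that passed. The largest differences were in Tuba1c (-3.34 ± 0.72), Tubb6 (-2.38 ± 0.43), Tubb2b (1.94 ± 0.49) and Tuba1a (1.85 ± 0.25), each with an edgeR adjusted p up to 0.00116. Of 23 stathmins and microtubule-associated proteins, 19 were higher and none lower (median 1.65), led by Crmp1 (4.76 ± 0.25), a collapsin response mediator, Map6 (3.83 ± 0.34), which stabilises microtubules, Dpysl5 (3.78 ± 0.38) and the dendritic Map2 (3.47 ± 0.19). Mapt, the gene of tau, was at 3.17 ± 0.26 and Stmn4 at 2.91 ± 0.47 (edgeR adjusted p up to 2.94e-06 for these 6). Stmn1, the broadly expressed stathmin, had 10.6 CPM in neuronal nuclei and 7.07 CPM in non-neuronal nuclei (0.74 ± 0.49, edgeR adjusted p = 0.231) and did not pass.

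Spectrins, ankyrins and other linkers of the axon's membrane skeleton were higher in 11 of 12 cases and lower in 1 (median 1.08), with Add2 (4.65 ± 0.33), Sptbn4 (3.96 ± 0.39), Nfasc (3.77 ± 0.29) and Ank2 (2.91 ± 0.15) at the top; the gene that was lower was the linker Macf1 (-0.86 ± 0.14; edgeR adjusted p up to 4.78e-06 for these 5). Of 13 motor genes, 10 were higher and 1 lower (median 1.23). The kinesins Kif5a (3.75 ± 0.33), Kif1a (3.72 ± 0.27) and Kif5c (3.10 ± 0.27), which carry axonal cargo, led the rise, and Kif21b was lower (-3.29 ± 0.54; edgeR adjusted p up to 3.67e-06 for these 4). Of 7 genes of filament turnover and kinases, 4 were higher and none lower (median 0.67), namely Cdk5r2 (3.24 ± 0.61) and Cdk5r1 (2.18 ± 0.51), the activators of the neurofilament kinase Cdk5, Trim2 (0.74 ± 0.20) and Gsk3b (0.64 ± 0.14; edgeR adjusted p up to 0.00285 for these 4).

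In neuronal nuclei 7 filament, 10 tubulin, 23 stathmin and microtubule-associated, 12 linker, 13 motor and 7 turnover genes of these lists were tested. Between segments 2 of them passed, where 5.51% of all genes did, both lower in colon: Vim, at 69 CPM in colon and 118 CPM in SI (-0.82 ± 0.23, edgeR adjusted p = 0.0346), and Macf1, at 978 CPM in colon and 1796 CPM in SI (-0.97 ± 0.19, 0.00262). Between facilities in neuronal colon, where 3.09% of all genes passed, Map6 (1.09 ± 0.26, edgeR adjusted p = 0.0267) and the ubiquitin ligase gene Stub1 (2.31 ± 0.61, 0.0411) passed, both higher in Bern. In neuronal SI, where 0.683% of all genes passed, none did. The lists did not stand above these shares.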

How the data were processed

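The authors deposited 1 table of estimated (expected) counts per gene for 32 libraries, made with RSEM 1.3.0 and STAR 2.5.2 on GRCm38, per the submitters' processing notes, which also name DESeq2 1.10.1. Per the labels' protocols, nuclear RNA was amplified with the Ovation RNA-Seq System V2 and read as single ends. Amplification without molecular identifiers means that intervals and limits from counts cover counting error only. Expected counts were rounded to whole numbers (10.8% of the deposited values were not whole). Of 51912 identifiers, 51719 matched GENCODE M21, which gave symbols, coordinates and exon lengths. Library totals were 2394513 to 8350887, so 3 counts over a group, the limit used for a group at 0, came to 0.122 to 0.22 CPM.

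edgeR 4.0.16 (R 4.3.3) was used with TMM scaling, its default filter on low counts, a mean per group and the quasi-likelihood test, adjusted by Benjamini-Hochberg over all genes tested. Comparisons of sorts and their interactions used all 32 libraries (21521 genes). Those within neuronal nuclei used 16 libraries (17419 genes), and those within non-neuronal nuclei the other 16 (19164 genes). CPM divides by the total times the TMM factor. The SE is the fold change divided by the root of the F statistic. All 10 genes passed each filter. Alternatives were upper quartile scaling, no filter, limma 3.58.1, DESeq2 1.42.0, other sets of libraries and a replicate term, and the fit was tested on simulated data. From each cytoskeleton list, up to 4 genes with the largest fold change past the threshold were named, plus Vim, Des, Gfap, Stmn1, Stmn4, Mapt and Map2; the 5 genes most like Prph, Nes and Sync had the highest Pearson r of log2 CPM, and 1 of them is not reported here. The members and lists were chosen with earlier results of these data known. The ratio of Nefl to Nefh, the genes near Sync and the fits without 6 libraries were added after the values were seen. Promoters came from RefSeq (GRCm38.p6), searched with Python 3.11.15.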

Additional observations from a re-analysis of the deposited data

Results flagged for a closer look

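Of 80 sets of 4 libraries (10 genes in 8 groups), 17 had a library far from the other 3, by a rule that chance passes in about 1 of 20 sets of normal values. In 4 of the 17 the other 3 libraries were at 0, so that any count in the remaining library met the rule and this rate does not apply; 13 were of the other kind. In neuronal nuclei, Crick colon 4 stood high for Nefm (92.1 CPM, the others 25.2 to 26.9), Nefh (17.5 CPM, the others 5.16 to 7.23) and Nes (5.16 CPM, the others 0.699 to 1.2), and Crick colon 1 stood low for Stmn3 (23.5 CPM, the others 28 to 28.8). Bern SI 3 stood high for Stmn3 (37.8 CPM, the others 17.4 to 20). Nes had 1.21 CPM in Bern colon 2 and 0.291 CPM in Bern SI 4, where the other 3 libraries of each group were at 0.

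In non-neuronal nuclei, Bern SI 1 stood high for Stmn2 (83 CPM, the others 0.767 to 5.6), Ina (1.8 CPM, the others 0 to 0.295) and Tubb3 (2.16 CPM, the others at 0). The same library had a sum of 1063 CPM over the other 14 neuronal markers, against 130 to 191 CPM in the other 3. Bern colon 1 stood high for Ina (10.9 CPM, the others 0.257 to 1.37), Bern colon 2 for Stmn3 (11.9 CPM, the others 0.91 to 2.73) and Bern colon 4 for Nefh (13 CPM, the others 0 to 1.8). Bern SI 4 stood high for Nefm (4.35 CPM, the others 0 to 0.396) and Bern SI 2 for Stmn3 (0.792 CPM, the others at 0). Crick SI 2, with 23.6% mitochondrial counts, stood high for Nefl (4.12 CPM, the others 0.269 to 0.609), and Crick colon 4 for Sync (24.3 CPM, the others 8.09 to 10.6).

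The difference between neuronal and non-neuronal nuclei was itself smaller in colon than in SI by the interaction test for Prph (-2.79), Nefl (-3.24) and Ina (-2.97), with adjusted p in edgeR of 0.000837, 0.0127 and 0.0162. The neuronal markers in the non-neuronal sort moved with it, and their part was not tested.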

How the results depend on the processing

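No value of the 10 genes that passed the threshold changed sign under any alternative, but of 130 values (10 genes in 13 comparisons) 24 that did not pass changed sign under 1 or more. The largest shifts among these were Stmn2 between facilities in non-neuronal nuclei (1.41, down to -0.47) and Nes in the interaction of segment and sort (1.13, down to -0.72). Next came Stmn2 in the interaction of facility and sort (-0.29, up to 1.47) and Nefh between sorts in Bern colon (0.70, and -0.32 without the 6 libraries that stood apart). In the comparison of sorts over all libraries, 9 genes stayed higher and 1 lower throughout. In what follows, "the 10" counts genes of the set and other counts are over all genes, each with the count first reported in parentheses. The cause of these shifts was not tested, except that fits on fewer libraries have fewer degrees of freedom.

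With DESeq2, the interaction of segment and sort gave 5 of the 10 lower (3), with 504 genes higher (235) and 1782 lower (1160). The interaction of facility and sort gave 426 higher (33) and 266 lower (11). Colon against SI gave in non-neuronal nuclei 5 of the 10 higher (2), 2123 genes higher (1109) and 1028 lower (678), and in neuronal nuclei 1 of the 10 lower (0), 695 higher (343) and 1185 lower (617). Bern against Crick gave 3323 lower (947) in non-neuronal nuclei, 897 higher (330) and 838 lower (208) in neuronal colon, and 289 higher (99) and 144 lower (20) in neuronal SI. The interaction of segment and facility gave 18 higher (1) and 30 lower (0).

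With limma, 1 of the 10 was lower in Crick colon between sorts (0), 1711 genes were lower in Crick SI (1090), 3 were lower in the interaction of facility and sort (11), 5 of the 10 were higher in colon in non-neuronal nuclei (2), and 1 was lower in colon in neuronal nuclei (0). Bern against Crick gave 2400 lower in non-neuronal nuclei (947) and 31 lower in neuronal SI (20), and the interaction of segment and facility 0 higher (1) and 2 lower (0). With no filter on low counts, the interaction of facility and sort gave 1 of the 10 lower (0), 244 genes higher (33) and 229 lower (11). Bern against Crick gave 2 of the 10 higher (1), 1373 higher (833) and 5000 lower (947) in non-neuronal nuclei, 683 higher (330) and 351 lower (208) in neuronal colon, and 273 higher (99) and 55 lower (20) in neuronal SI. Colon against SI in neuronal nuclei gave 594 higher (343) and 1058 lower (617), and the interaction of segment and facility 47 higher (1) and 46 lower (0).

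With all 32 libraries in 1 fit, colon against SI gave 6 of the 10 (2) and 2108 genes (1109) higher in non-neuronal and 197 genes higher (343) in neuronal nuclei. Bern against Crick gave 2 of the 10 higher (1) and 1990 genes lower (947) in non-neuronal nuclei, 83 higher (330) and 81 lower (208) in neuronal colon, and 1 of the 10 higher (2), 0 lower (1), 30 genes higher (99) and 13 lower (20) in neuronal SI. With only the libraries compared, sorts in Bern colon gave 4 of the 10 higher (7), 0 lower (1), 796 genes higher (2225) and 1225 lower (3198); Bern SI 0 of the 10 lower (1), 1150 higher (3709) and 975 lower (2779); Crick colon 1 of the 10 lower (0) and 3155 higher (1605); and Crick SI 1 of the 10 lower (0), 2624 higher (1404) and 2677 lower (1090). Facilities gave 92 higher (330) and 27 lower (208) in neuronal colon and 1 of the 10 higher (2) in neuronal SI.

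With upper quartile scaling, Bern against Crick gave 463 higher (833) in non-neuronal nuclei, 209 higher (330) and 450 lower (208) in neuronal colon, and 1 of the 10 higher (2), 0 lower (1) and 28 genes higher (99) in neuronal SI. Whether replicate numbers pair the libraries was not settled. By a strict rule, in 0 of 16 pairs of groups did all same-numbered libraries deviate together (correlations of -0.323 to 0.488). Yet 43 of 96 best matches were with the same number, more than the 24 that no pairing gives. Same-numbered sorts of Crick mice all correlated above 0, with means of 0.20 in colon and 0.209 in SI, a hint from the data and not from the design. Under the block Nefm lost its call between sorts in Bern colon (adjusted p = 0.0616), and calls were gained by Nefh (0.0435) and Sync (0.0218) in Crick SI and by Stmn2 between segments in non-neuronal nuclei (0.0175). With the replicate block, the interaction of facility and sort gave 7 higher (33) and 4 lower (11), colon against SI 430 lower in non-neuronal (678) and 224 higher in neuronal nuclei (343), and facilities 125 higher (330) and 69 lower (208) in neuronal colon and 1 of the 10 higher (2), 0 lower (1), 37 genes higher (99) and 6 lower (20) in neuronal SI.

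Without the 6 libraries that stood apart, a choice made after seeing the data, the interaction of segment and sort gave 6 of the 10 lower (3) and 134 genes higher (235), and that of facility and sort 1 of the 10 (0) and 128 genes (33) higher. Colon against SI gave 570 higher (1109) and 194 lower (678) in non-neuronal nuclei, and facilities 353 higher (833) and 392 lower (947) in non-neuronal nuclei and 1 of the 10 higher (2), 0 lower (1) and 7 genes lower (20) in neuronal SI.

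Leaving out 1 library at a time gave these ranges. Between facilities in neuronal SI, 1 to 2 of the 10 were higher and 0 to 1 lower, with 6 to 148 genes higher and 5 to 27 lower, and in neuronal colon 1 to 2 of the 10 were higher, with 35 to 614 genes higher and 24 to 535 lower. In non-neuronal nuclei 0 to 1 of the 10 and 712 to 1649 genes were lower in Bern. The interaction of facility and sort gave 2 to 195 higher and 1 to 59 lower, that of segment and facility 0 to 2 higher and 0 to 1 lower, and that of segment and sort 2 to 5 of the 10 lower. Colon against SI gave 0 to 1 of the 10 higher and 0 to 1 lower in neuronal nuclei, and 2 to 5 of the 10 higher, 715 to 1556 genes higher and 404 to 861 lower in non-neuronal nuclei. Sorts gave 4 to 7 of the 10 higher and 0 to 1 lower in Bern colon, and 649 to 1165 genes lower in Crick SI. The Nefl to Nefh difference was 2.35 with 2 counts added in place of 0.5. Depth limits the low genes most: Nes, Nefl and Stmn3 rest on 1 or 2 counts in whole groups of Bern SI.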
